A study of Mus musculus with 3 samples.

Results

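The 10 genes described here encode the enzymes that turn arachidonate into prostaglandins and thromboxane and the enzyme that starts to break prostaglandins down. The list was chosen with earlier results of these data known. The genes were then taken by symbol alone from the 32285 genes of the count matrices, and all 10 were found: Ptgs1, Ptgs2, Ptges, Ptges2, Ptges3, Ptgds, Hpgds, Ptgis, Tbxas1 and Hpgd. Their unique molecular identifiers (UMIs, the count of distinct captured transcripts) were summed over the cells of each class in each library, and levels are given in CPM, the UMIs of the gene for each 1000000 UMIs of all genes in those cells.

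Single cells came from the dorsal skin of male C57Bl/6 mice aged 8 weeks, in telogen, the resting phase of the hair cycle, after bead enrichment for the leukocyte marker CD45. The WTctrl library came from wild-type skin without UVB. The WTUV library came from wild-type skin after 3 exposures to UVB, 1 every other day. The RPUV library came from skin of genotype RP after the same 3 exposures. RP mice carry Rosa26-rtTA and Tre-Ptgs2, so that doxycycline turns on a rat Ptgs2 transgene in all tissues rather than in 1 cell type. Whether the wild-type mice received doxycycline was not stated. Each group is 1 library, so no difference below has a replicate check, no test was run, and each 95% interval (exact Poisson for levels, exact binomial for folds, Wilson for shares of cells) covers counting error only. WTctrl and RPUV shared a sequencing flow cell and WTUV was run on another, so that the run cannot be told apart from UVB or from genotype in the comparisons with WTUV. RPUV and WTctrl differ in UVB and in genotype at once, so these cannot be told apart in that comparison. The RP mouse was 1 male.

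After filtering, 5309 cells of WTctrl, 5225 of WTUV and 6070 of RPUV remained, with median depths of 4246, 10557 and 3774 UMIs a cell. Clusters were named from marker panels, and 7.91%, 11.2% and 11.2% of cells stayed unnamed. In spite of the CD45 beads, cells of non-immune classes were 33.4% of WTctrl and 10.6% of WTUV, and fibroblasts (337, 7 and 350 cells) and endothelial cells (86, 3 and 351) were too few in WTUV to give a level. Neutrophils numbered 12, 56 and 560. Levels are given only for classes with at least 20 cells in a library. One sub-cluster inside the Langerhans cell class, led by Mki67 and Top2a, went against its name: Cd207, the defining Langerhans cell marker, had a UMI in 2 of its 16 cells in WTctrl, 11 of 30 in WTUV and 6 of 20 in RPUV, against 76 of 76, 81 of 81 and 30 of 34 of the other cells of the class. The main Langerhans cell values are therefore given with and without it.

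Prostaglandin synthesis starts when a phospholipase frees arachidonate from membranes. The cyclooxygenases Ptgs1, present in many resting cells, and Ptgs2, which is induced by injury and inflammation, convert it to the unstable intermediate PGH2, and the terminal synthase that a cell holds then decides the product. Ptges, Ptges2 and Ptges3 encode PGE2 synthases, Ptgds and Hpgds PGD2 synthases, Ptgis the prostacyclin synthase and Tbxas1 the thromboxane synthase. Hpgd encodes hydroxyprostaglandin dehydrogenase, which inactivates PGE2 and related prostaglandins. In skin, PGE2 is known for its part in sunburn erythema, in keratinocyte growth and in the response of pigment cells to UVB.

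On GRCm38.p6, the assembly of the RefSeq gene table used for positions, the 10 genes lie at separate places, 5 of them on chromosome 2. Ptgs1 spans chr2:36216742-36258593, Ptgs2 chr1:150100031-150108234, Ptges chr2:30889471-30931020, Ptges2 chr2:32395890-32402740, Ptges3 chr10:128058982-128077254, Ptgds chr2:25466709-25470110, Hpgds chr6:65117293-65144981, Ptgis chr2:167203194-167252150, Tbxas1 chr6:38864159-39084590 and Hpgd chr8:56294552-56321046. The RefSeq promoter windows of the cyclooxygenase pair, which hold the resting and the inducible step of the same reaction, are shown because the results below turn on how differently these genes were distributed. Both windows are on the + strand and run from 250 bases before to 50 bases after the start. Capitals mark letters that match a GC box (GGGCGG), the core of the cAMP response element (CGTCA) or an E-box (CACGTG), searched on both strands.
Ptgs1, chr2:36230176-36230475: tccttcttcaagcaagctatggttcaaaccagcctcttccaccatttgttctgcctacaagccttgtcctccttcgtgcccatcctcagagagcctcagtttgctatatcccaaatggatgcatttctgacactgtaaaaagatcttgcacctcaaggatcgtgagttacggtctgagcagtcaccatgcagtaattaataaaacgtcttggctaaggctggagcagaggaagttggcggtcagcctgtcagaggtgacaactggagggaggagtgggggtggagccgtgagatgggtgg
Ptgs2, chr1:150099781-150100080: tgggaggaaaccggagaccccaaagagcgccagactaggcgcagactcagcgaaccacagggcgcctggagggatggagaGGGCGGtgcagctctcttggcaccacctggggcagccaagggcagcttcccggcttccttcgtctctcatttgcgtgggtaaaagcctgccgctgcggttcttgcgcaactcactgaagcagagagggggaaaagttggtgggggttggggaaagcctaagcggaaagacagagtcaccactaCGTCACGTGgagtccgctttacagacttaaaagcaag
In the Ptgs2 window, the CGTCA and CACGTG matches overlap and lie after the start, at bases 264 to 268 and 267 to 272 of the window. The Ptgs1 window holds none of these letters, nor TATAAA, and it lies inside the extent of the gene because other RefSeq transcripts start upstream. Of all 32851 promoter windows, 35.7% hold GGGCGG, 20.8% CGTCA, 7.15% CACGTG and 13.6% TATAAA. Of the 9 members with a window (none was found for Ptgis), 4, 2, 2 and 2 hold them. A match describes the letters only.

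The enzymes divided between immune and non-immune cells. Of all kept UMIs of Ptges, 94.6% in WTctrl, 88.5% in WTUV and 87.4% in RPUV were in non-immune classes, although these cells were the minority in each library. Tbxas1 showed the reverse: its level in immune cells was 52.8, 33 and 45.4 CPM in WTctrl, WTUV and RPUV, against 0.805, 0.756 and 0.876 in non-immune cells. Hpgds and Hpgd were higher in immune cells (Hpgds 124, 105 and 105 against 32.6, 31.1 and 15.1 CPM, and Hpgd 256, 124 and 71.7 against 49.6, 16 and 21.5). Ptgs1 was higher in non-immune cells (77, 125 and 68.1 against 37.1, 23 and 16.4). Ptges3, which also encodes a co-chaperone of the heat shock protein Hsp90, was even, at 141, 169 and 196 in immune and 142, 171 and 217 in non-immune cells. Levels are compared here between cells for the same gene and not between genes.

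**Figure D1:**
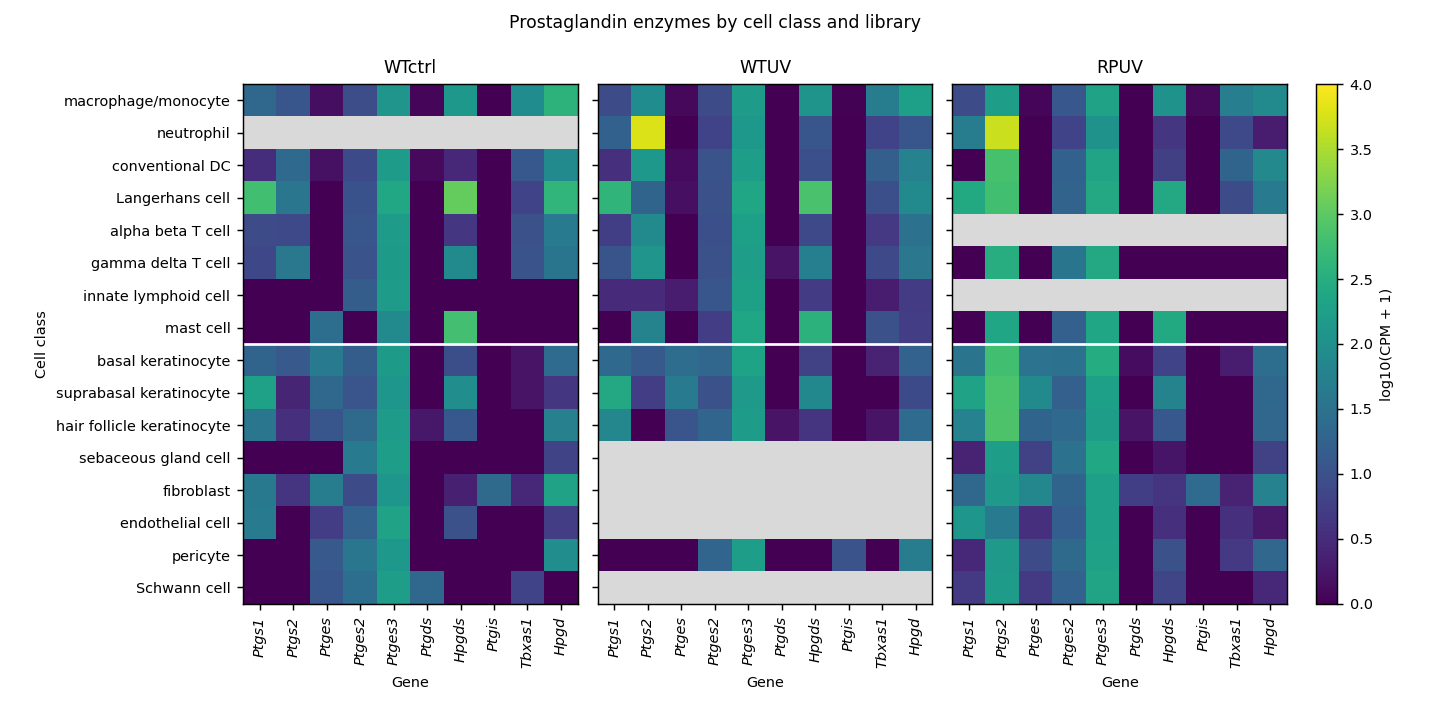
Level of each of the 10 genes (columns) in each cell class (rows) of the 3 libraries (panels), as log10 of CPM plus 1. The white line parts immune from non-immune classes, and grey marks classes with under 20 cells. Ptges is low in most rows above the line, Tbxas1 is low below it, Ptges3 is even, and Ptgs2 fills most rows of RPUV.

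Comparisons between libraries were made per member and class, for classes with at least 20 cells in both libraries and members with at least 20 UMIs over both. A difference was called where the fold was 2 or more (or 1/2 or less) and its interval left out 1. Between WTUV and WTctrl, 60 of 120 pairs of member and class could be compared: 5 were higher in WTUV (background 3.63% of all gene and class pairs) and 4 lower (background 3.56%). Between RPUV and WTUV, 57 pairs could be compared, of which 11 were higher in RPUV (background 4.44%) and 3 lower (background 4.62%). Between RPUV and WTctrl, 17 of 61 pairs were higher (background 6.28%) and 10 lower (background 7.06%). Several of these counts rose under other settings, as the closing section on processing describes. The median log2 fold over the members' pairs was 0.05, 0.33 and 0.50 for these comparisons, against -0.05, 0.05 and -0.01 over all genes. Over single classes these background shares ranged from 1.28 to 5.65% higher and 1.31 to 9.32% lower in WTUV against WTctrl, from 2.34 to 6.25% and 1.38 to 7.13% in RPUV against WTUV, and from 3.12 to 12% and 3.08 to 13.1% in RPUV against WTctrl. Comparisons that share a library are not independent of each other. Ptgs2, the transgene's own gene, gave 9 of the 11 higher pairs of RPUV against WTUV and 12 of the 17 against WTctrl. The members' medians above include it, and none was computed without it. No pair of Ptgds had UMIs enough to be compared.

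Ptgs1 was a gene of Langerhans cells and of the outer epidermis. In WTctrl its level was 605 CPM (542 to 674) in Langerhans cells, the dendritic cells of the epidermis, and 191 (176 to 207) in suprabasal keratinocytes, with endothelial cells (43.5) and fibroblasts (40.5) next and not apart from each other. In WTUV the order was Langerhans cells at 411 (385 to 439), suprabasal keratinocytes at 259 (239 to 279) and hair follicle keratinocytes at 70.2. In RPUV the intervals of Langerhans cells (265, 217 to 321) and suprabasal keratinocytes (203, 184 to 223) overlapped. Without the Mki67 sub-cluster the Langerhans cells of RPUV held 564 (462 to 683), above the suprabasal interval. Suprabasal keratinocytes held 42.8%, 27.2% and 35.9% of the Ptgs1 UMIs of WTctrl, WTUV and RPUV, and Langerhans cells 24.3%, 36.4% and 9.11%. Mast cells, which are known for Ptgs1-dependent PGD2, held 0 Ptgs1 UMIs in each library, in 30, 94 and 40 cells, so their Ptgs1 was not detectable at this depth.

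Within the epidermis, Ptgs1 was higher in suprabasal than in basal cells. Basal keratinocytes, the dividing layer, held 18.3 (13.8 to 23.7), 22.6 (16.6 to 30.2) and 33.8 (27.3 to 41.4) CPM of Ptgs1 in WTctrl, WTUV and RPUV, all below the suprabasal values of 191, 259 and 203. Among suprabasal cells the Ptgs1 level was highest in the sub-cluster with Lor, Krt77 and Sbsn among its leading genes, which are genes of the outermost living layer, where it was 527 (452 to 609), 550 (488 to 618) and 511 (405 to 636). These 3 intervals overlap, so that no difference between libraries was detectable for Ptgs1 in these suprabasal cells.

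Ptgs1 was called different in few places. In macrophages and monocytes it was 20.3 (17.2 to 23.8), 7.61 (6.66 to 8.65) and 7.15 (5.74 to 8.79) CPM, lower by 2.67-fold (2.17 to 3.28) in WTUV and by 2.84-fold (2.18 to 3.73) in RPUV than in WTctrl. With stricter cluster names neither reaches 2-fold (log2 -0.88 and -0.80). Within the 3 macrophage sub-clusters where WTUV and WTctrl could be compared for Ptgs1, all folds were below 1 and 0 were called. Langerhans cells of RPUV held 2.28-fold less Ptgs1 (1.83 to 2.87) than those of WTctrl, but without the Mki67 sub-cluster the levels were 831 (744 to 926), 622 (581 to 666) and 564 (462 to 683), and the difference was 1.47-fold (1.18 to 1.85). In that sub-cluster the cells of RPUV held 0 Ptgs1 UMIs. In endothelial cells Ptgs1 was 43.5 (20.8 to 79.9) in WTctrl and 126 (106 to 148) in RPUV, 2.9-fold higher (1.53 to 6.18). The endothelial sub-cluster led by Selp, Aqp1 and Plvap, with the venous genes Sele and Ackr1, had 230 (187 to 279) in RPUV. It held 119 of the 351 endothelial cells of RPUV and was not among the 3 most frequent in WTctrl, which held 38, 28 and 11 of 86. In the 1 endothelial sub-cluster compared, the Ptgs1 fold was 3.6 and was not called. A change within a cell type and a change of cell types cannot be told apart in the class value. If unnamed clusters take the class of their best panel, the endothelial log2 fold is 0.74 in place of 1.54.

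In the wild-type libraries the classes with the highest Ptgs2 level were leukocytes. Neutrophils were above all other classes with at least 20 cells in WTUV at 6250 CPM (5896 to 6621), followed by conventional dendritic cells at 135 (128 to 142) and gamma delta T cells at 123 (111 to 136), which overlapped. Hair follicle keratinocytes and pericytes of WTUV held 0 Ptgs2 UMIs, and suprabasal keratinocytes held 11 UMIs in 237 cells. In WTctrl, gamma delta T cells (38.6), plasmacytoid dendritic cells (38.2) and Langerhans cells (36) led with overlapping intervals. The 20 Ptgs2 UMIs of the Langerhans cell class were however almost all in the Mki67 sub-cluster, since the other 76 cells held 2 (5.01, 0.606 to 18.1). Outside that sub-cluster, Ptgs2 was 4.92-fold higher in WTUV than in WTctrl (1.26 to 42.3), from 33 and 2 UMIs. Over the whole class the log2 fold was -0.96 and was not called. In conventional dendritic cells, which carry antigen to lymph nodes, Ptgs2 was 22 (17.6 to 27.3) in WTctrl, and WTUV was 6.13-fold higher (4.91 to 7.73). The most frequent sub-cluster of these cells in WTUV, led by Mmp12 and Ffar2, held 239 cells there and 1 in WTctrl, and within the 2 sub-clusters that could be compared the Ptgs2 folds were 2.07 (1.43 to 3.04) and 2.72 (1.74 to 4.47), both called. In macrophages and monocytes it was 10.9 (8.72 to 13.5) in WTctrl and 86 (82.7 to 89.3) in WTUV, 7.86-fold higher (6.33 to 9.89). Of the 5 macrophage sub-clusters that could be compared for Ptgs2, 4 were above 1, of which 1 was called (5.25-fold, 2.92 to 10.4), and 1 was below 1 (0.502, 0.332 to 0.763), so that a change within a cell type and a change of cell types cannot be told apart in the class value. In alpha beta T cells it was 6.53 (2.4 to 14.2) and 77.5 (68.7 to 87.2), 11.9-fold higher (5.39 to 32.6), and in the 1 sub-cluster compared 7.06-fold (3.2 to 19.4). Over the 3 largest alpha beta T cell sub-clusters, Ptgs2 ranged from 0 to 139. The one led by Trac and Cd28 was 12.2% of the class in WTctrl and 23.4% in WTUV. Its depth was 2.04 times the library median, against 0.499 in the largest, and conventional dendritic cell markers scored next in it. Whether it holds T cells captured together with dendritic cells was not tested. Basal keratinocytes, at 12.1 (8.5 to 16.6) in WTctrl, overlapped the macrophages and monocytes of that library and did not differ by a call from those of WTUV, at 12.8.

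In RPUV, Ptgs2 was found in each class that had at least 20 cells. Neutrophils stayed highest at 4738 (4599 to 4882), a level that was 0.758 of that in WTUV (0.71 to 0.81) and was not called. Its direction depends on the naming of clusters, since the log2 fold is -0.40 here and 1.25 if unnamed clusters take the class of their best panel. Keratinocytes were among the classes that gained most. The level was 623, 727 and 758 in basal, suprabasal and hair follicle keratinocytes. It was 48.7-fold (33.1 to 74.8), 170-fold (94.5 to 341) and at least 414-fold above WTUV, the last with the floor at 3 UMIs. It was 174 (167 to 182) in macrophages and monocytes, 679 (603 to 762) in conventional dendritic cells, 617 (542 to 699) in Langerhans cells (957, 821 to 1108, without the Mki67 sub-cluster), 165 (144 to 188) in sebaceous gland cells, 161 (128 to 199) in Schwann cells, 143 (124 to 165) in fibroblasts, 138 (109 to 173) in pericytes or smooth muscle cells and 44.3 (33 to 58.3) in endothelial cells. Stromal classes were thus below keratinocytes, and endothelial cells lowest, by intervals that do not overlap. In Schwann cells 39 of 84 Ptgs2 UMIs were in 1 cell, and in pericytes or smooth muscle cells 30 of 77. Without the richest cell of each class, the levels were 87.3 and 85.2 there, 121 in fibroblasts and 37.5 in endothelial cells. In WTctrl the sebaceous, Schwann, pericyte and endothelial classes held 0 Ptgs2 UMIs, so RPUV was at least 19.2, 10, 7.55 and 3.4-fold higher, with the floor set at 3 UMIs per library. In Langerhans cells RPUV was 33.3-fold above WTUV (23.8 to 47.8), and without the Mki67 sub-cluster 38.9-fold (26.7 to 58.2). These intervals overlap that of basal keratinocytes. Whether these UMIs came from the rat transgene or from the mouse gene cannot be told apart in the matrices.

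Neutrophil RNA moved with this result. Markers of neutrophils (9 genes) had UMIs in the other classes of RPUV, and their summed level there, as a share of that in neutrophils, would carry a Ptgs2 level of 4.44 CPM into basal keratinocytes (8 of 9 markers, Acod1 at 0), 61.8 into suprabasal keratinocytes (5 of 9), 13.2 into fibroblasts, 14 into pericytes, 9.99 into endothelial cells, 47.7 into Schwann cells, 131 into Langerhans cells and 155 into mast cells. In the other classes compared it was 14.7 in macrophages and monocytes, 77.9 in conventional dendritic cells (9 of 9 markers), 5.92 in gamma delta T cells, 10.3 in hair follicle keratinocytes and 14.2 in sebaceous gland cells. Each is below the level measured, and the mast cell value of 220 (120 to 369) is the closest. In WTUV the same estimate was 17.4 in macrophages and monocytes, 8.13 in conventional dendritic cells, 2.7 in alpha beta T cells and 5.38 in gamma delta T cells, each below the level measured, while in suprabasal keratinocytes of WTUV it was 8.53 against 4.29 measured. Without the cell richest in Ptgs2, the folds of RPUV over WTUV in mast cells and gamma delta T cells were 2.29 (0.834 to 5.86) and 1.77 (1.04 to 2.84) in place of 3.63 and 2.54, and neither stays called. Over the non-neutrophil classes of RPUV with at least 20 cells, the summed neutrophil marker level ranged from 43.2 to 1509 CPM.

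**Figure D2:**
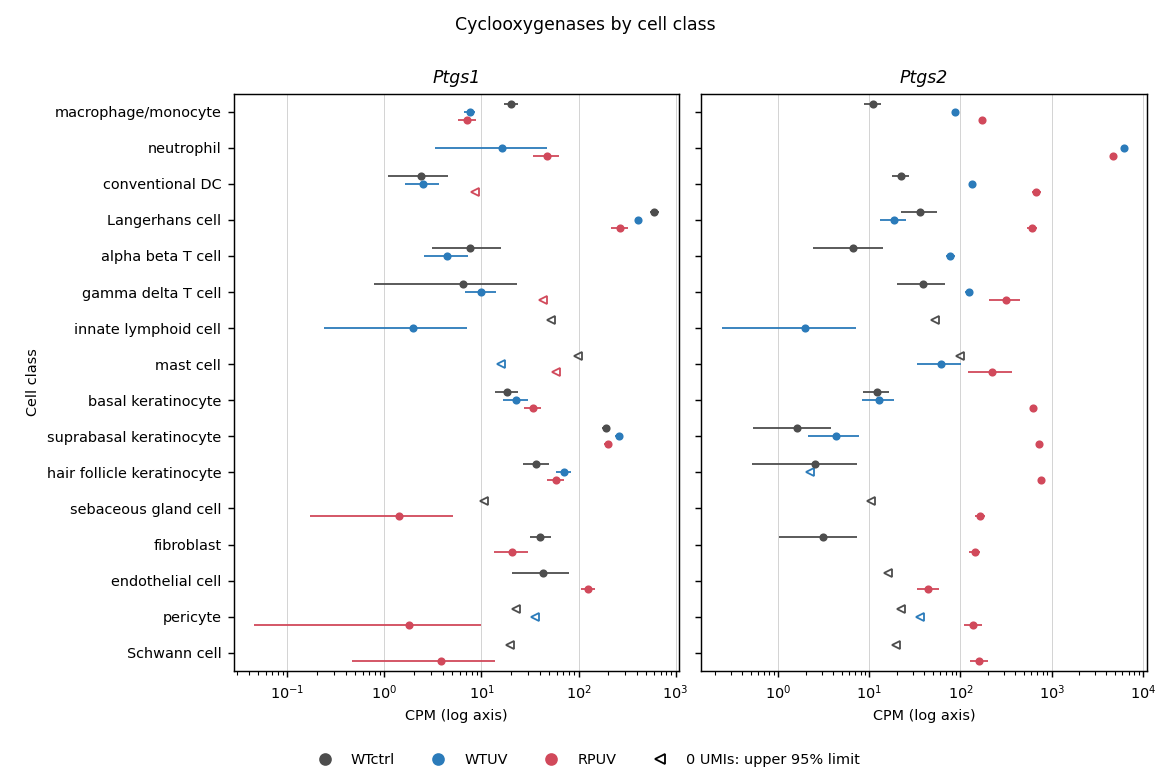
Levels of Ptgs1 (left) and Ptgs2 (right) in CPM, on log axes, for each cell class (rows) and library (colours). Points are levels with exact 95% Poisson intervals, and open triangles are the upper 95% limit where there were 0 UMIs. Ptgs1 peaks in Langerhans cells and suprabasal keratinocytes in all 3 libraries, and the RPUV points of Ptgs2 stand right of the others in each class that has one, other than neutrophils.

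The inducible PGE2 synthase Ptges was found mainly in keratinocytes and fibroblasts. In WTctrl, apart from mast cells with 1 UMI (26.9, 0.682 to 150), fibroblasts (49.2, 39 to 61.4) and basal keratinocytes (43.7, 36.6 to 51.8) were highest and overlapped. In RPUV, suprabasal keratinocytes (81.6, 69.6 to 95) and fibroblasts (71.3, 57.6 to 87.3) were highest and overlapped. Macrophages and monocytes held 3, 7 and 2 Ptges UMIs in 1931, 2399 and 2311 cells (0.39, 0.229 and 0.161 CPM), and neutrophils and alpha beta T cells with at least 20 cells in a library held 0. Without thinning, 0 of 56 neutrophils of WTUV and 0 of 560 of RPUV had a Ptges UMI, which allows a share of up to 5.36% and 0.536%. Such limits at 0 are 3 counts of the total, cover counting error only and limit the cells with a UMI at this depth, not the cells that express the gene.

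Ptges rose in suprabasal keratinocytes of RPUV. The level was 21.3 (16.5 to 27.1) in WTctrl, 41.7 (34.2 to 50.4) in WTUV and 81.6 in RPUV, 3.83-fold (2.86 to 5.17) above WTctrl, and the 3 intervals do not overlap. The folds of WTUV over WTctrl and of RPUV over WTUV were 1.96 each and were not called. In the suprabasal class the median log2 fold of all genes between WTUV and WTctrl was -0.20, and centred on it the log2 fold of Ptges is 1.17, past 2-fold. Basal keratinocytes did not follow, with 43.7, 26.1 (19.5 to 34.1) and 32.7 (26.3 to 40.2). In fibroblasts the fold of RPUV over WTctrl was 1.45 and was not called.

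The suprabasal rise in Ptges went with a change in which cells made up the class. A sub-cluster led by Krt6b, Krt16, Cstdc5 and Sprr1b, keratins and envelope genes of activated epidermis, held 0 suprabasal cells in WTctrl, 33 of 237 in WTUV and 112 of 259 in RPUV. The Ptges level in it was 130 (94.1 to 175) in WTUV and 97.8 (81.2 to 117) in RPUV. In the sub-cluster led by Mt4, Clca3a2 and Krt1, which held 66.3% of the class in WTctrl, Ptges was 21.4 (15.8 to 28.4), 28.8 (19.4 to 41.1) and 39.2 (18.8 to 72.2), which overlap. Between RPUV and WTctrl the Ptges fold was above 1 in all 3 suprabasal sub-clusters that could be compared (1.83 to 4.64) and was called in 2. In fibroblasts, Ptges was highest in the sub-cluster led by Igfbp3 and Crabp1, at 98.3 (67.6 to 138) in WTctrl, and the sub-cluster of RPUV led by Slc26a7 and Crabp1 had 85.2 (56.6 to 123), which overlapped the other fibroblasts of that library.

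The other PGE2 synthases were spread over all classes. Ptges3 was between 112 and 295 CPM in each class with at least 20 cells, other than mast cells of WTctrl at 80.8 from 3 UMIs, with basal keratinocytes at 149 (135 to 163), 208 (189 to 229) and 295 (275 to 316) and macrophages and monocytes at 123 (115 to 131), 161 (157 to 166) and 200 (192 to 208), and no fold of Ptges3 was called. Ptges2, a membrane-bound synthase with low counts, was 7.94, 7.64 and 11.3 in macrophages and monocytes and 14 (10.2 to 18.9), 19.7 (14 to 26.8) and 30.5 (24.3 to 37.8) in basal keratinocytes. Ptges2 was called between RPUV and WTctrl in basal keratinocytes (2.18-fold, 1.49 to 3.22) and fibroblasts (2.43-fold, 1.17 to 5.34), and both lose the call under some of the alternatives tried, at log2 folds down to 0.77 and 0.83.

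PGD2 synthesis rested on Hpgds, the hematopoietic synthase. In WTctrl and WTUV its levels were highest in Langerhans cells, which in the order WTctrl, WTUV and RPUV held 1114 (1028 to 1205), 714 (679 to 751) and 263 (215 to 318) CPM, and without the Mki67 sub-cluster 1535 (1416 to 1661), 1051 (996 to 1107) and 554 (452 to 671). Mast cells, a known source of PGD2, held 646 (414 to 962), 377 (302 to 465) and 267 (156 to 428), which in RPUV overlapped the whole Langerhans cell class, and macrophages and monocytes held 134 (125 to 142), 117 (113 to 121) and 112 (107 to 119). Because there were more of them, macrophages and monocytes held 48.4%, 57.8% and 77.3% of the Hpgds UMIs. Neutrophils and conventional dendritic cells had little, and the conventional dendritic cell level of 8.44 in WTUV was below the 15.4 that their macrophage markers (11 of 11, at 13.2% of the macrophage level) would carry.

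Suprabasal keratinocytes also held Hpgds, although keratinocytes had been taken as cells that should lack it. The level there was 90.7 (80.4 to 102), 72.5 (62.4 to 83.7) and 59.5 (49.3 to 71) CPM, against 8.15, 4.92 and 5.45 in basal keratinocytes. Langerhans cell RNA, measured by Cd207 and H2-M2, would carry 1.82, 0.566 and 0.167 into the suprabasal cells, so the levels there were not at the size of that background. RNA from mast cells or macrophages is not covered by this estimate. For basal keratinocytes of WTctrl the same estimate was 15, above the 8.15 measured. Gamma delta T cells held 80.5 (52.1 to 119) in WTctrl and 52.8 (45 to 61.5) in WTUV, with 11.4 expected from Langerhans cell markers in both.

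Hpgds in Langerhans cells was lower in RPUV. It was 2.72-fold (2.23 to 3.35) below WTUV and 4.24-fold (3.44 to 5.27) below WTctrl. Without the Mki67 sub-cluster, which made up 17.4%, 27% and 37% of the class, the differences were 1.9-fold (1.55 to 2.34), no longer past 2-fold, and 2.77-fold (2.25 to 3.45). RPUV held 54 Langerhans cells, 34 without the sub-cluster. Mast cells of RPUV had 2.42-fold (1.25 to 4.80) less Hpgds than those of WTctrl, from 17 and 24 UMIs, and without the cell richest in Hpgds the factor is 1.99. In conventional dendritic cells Hpgds was 4.6-fold higher in WTUV than in WTctrl (2.14 to 11.8), at the background level given above and with 29 of the 85 UMIs in a single cell. Gamma delta T cells of RPUV held 0 Hpgds UMIs in 34 cells, at least 1.52-fold below WTUV and 2.32-fold below WTctrl. In hair follicle keratinocytes Hpgds was 3.81-fold (1.38 to 13.1) higher in RPUV than in WTUV, from 19 and 5 UMIs, and the direction turns under 2 of the alternatives tried.

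Ptgds, the lipocalin-type PGD2 synthase, was confined to few cells, and most of its UMIs were in cells with pigment genes. Cells kept in WTctrl, WTUV and RPUV held 41, 36 and 41 Ptgds UMIs, in 9, 9 and 12 cells. Of these cells, 7, 5 and 8 also had at least 3 UMIs of the melanocyte genes Dct, Pmel, Tyrp1 and Mlana, and they held 38, 32 and 32 of the Ptgds UMIs. Over all 13, 7 and 14 cells with those melanocyte genes, the Ptgds level was 724 (512 to 994), 385 (264 to 544) and 748 (512 to 1056) CPM. With so few cells these values describe the cells captured.

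Prostacyclin synthase was a fibroblast gene. All 37 Ptgis UMIs of WTctrl were in fibroblasts (23.1 CPM, 16.2 to 31.8), as were 32 of the 35 in RPUV (24.3, 16.6 to 34.3). Endothelial cells, a known source of prostacyclin in vessels, held 0 Ptgis UMIs in both libraries. Within fibroblasts, Ptgis was almost all in the sub-cluster led by Gpx3, Clec3b and Ogn, at 152 (105 to 213) in WTctrl and 63.9 (42.8 to 91.7) in RPUV. The 2 intervals do not overlap, from 36 and 74 cells. WTUV held 3 Ptgis UMIs (0.0465 CPM over all kept cells, 0.00958 to 0.136), 2 of them in macrophages and monocytes and 0 in its 7 fibroblasts.

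Thromboxane synthase belonged to macrophages and monocytes. They held 77.6%, 82.6% and 89.5% of the Tbxas1 UMIs of WTctrl, WTUV and RPUV. The level was 86.8 (80.3 to 93.7), 49.3 (46.8 to 51.8) and 51.3 (47.4 to 55.4) CPM, 1.76-fold and 1.69-fold higher in WTctrl than in WTUV and RPUV, neither of which was called. Conventional dendritic cells were next at 11.8, 15.1 and 18.8, of which macrophage markers would carry 5.91, 6.49 and 5.43, and keratinocytes, which should lack Tbxas1, had 1.5 or less. Among macrophage sub-clusters of WTctrl, Tbxas1 was highest in the one led by Retnla, Lyve1 and Fcna, genes of resident perivascular macrophages, at 140 (124 to 158), and the same sub-cluster had 161 (117 to 217) in WTUV. Within the 10 sub-clusters where WTUV and WTctrl could be compared, the fold of Tbxas1 was below 1 in 6 and above 1 in 4, and 3 were called lower. The Retnla sub-cluster was 29.1% of the macrophages and monocytes of WTctrl, and in WTUV the most frequent ones were led by other genes.

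**Figure D3:**
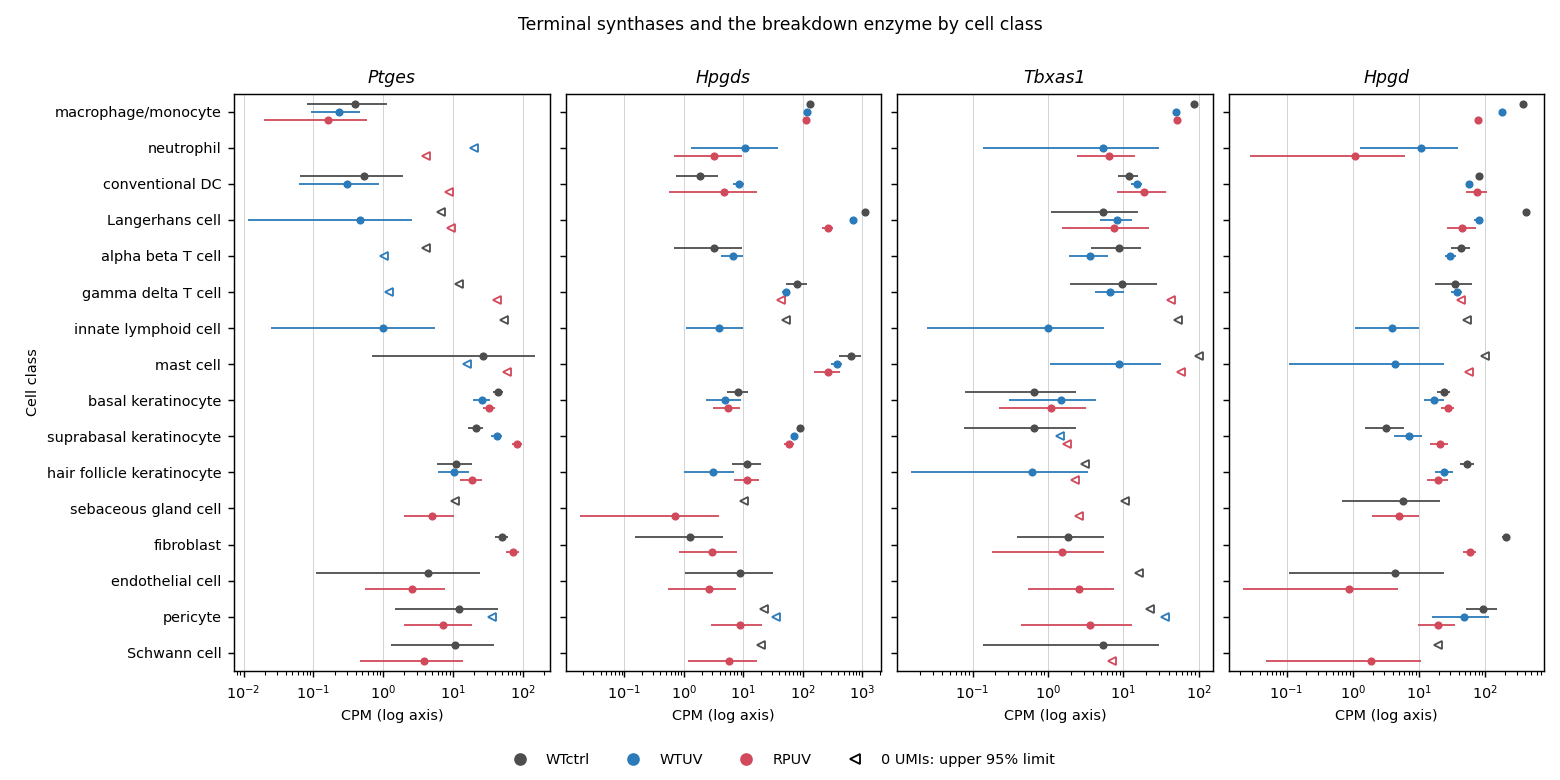
Levels of Ptges, Hpgds, Tbxas1 and Hpgd (panels) in CPM, on log axes, by cell class (rows) and library (colours), with exact 95% Poisson intervals. Open triangles are the upper 95% limit at 0 UMIs. Ptges points are highest for keratinocytes and fibroblasts apart from the mast cells of WTctrl, whose interval is wide, Tbxas1 points are highest for macrophages and monocytes, and the Hpgd points of macrophages and monocytes step down from 380 to 180 to 79.2.

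The breakdown enzyme Hpgd was lower in WTUV, RPUV or both than in WTctrl in several classes. In none of the immune classes compared was it called higher. In macrophages and monocytes it was 380 (367 to 394) CPM in WTctrl, 180 (175 to 184) in WTUV and 79.2 (74.4 to 84.4) in RPUV. WTUV was 2.12-fold (2.03 to 2.22) below WTctrl, RPUV 2.27-fold (2.12 to 2.43) below WTUV and 4.80-fold (4.46 to 5.16) below WTctrl. With each cell thinned to 1000 UMIs, the share of macrophages and monocytes with an Hpgd UMI was 29.7% (27.6 to 31.8), 16.4% (15 to 18) and 8.14% (7.09 to 9.34), and unthinned 63.4%, 58.7% and 26.4%. Alpha beta T cells, as a class where the macrophage markers showed carried RNA, had 2.22% and 1.5% in WTctrl and WTUV when thinned. The difference between WTUV and WTctrl stands close to 2-fold and misses it under 4 of the alternatives tried, at a log2 fold of -0.97 at the least. The differences of RPUV from WTctrl and from WTUV stayed past 2-fold under all 12.

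In Langerhans cells Hpgd was 422 (369 to 479), 80.5 (69 to 93.4) and 45.5 (27 to 71.9), 5.24-fold (4.28 to 6.41) lower in WTUV and 9.27-fold (5.74 to 15.9) lower in RPUV than in WTctrl. Without the Mki67 sub-cluster the levels were 561 (490 to 639), 108 (91.3 to 127) and 43 (18.6 to 84.7), and these factors were 5.18 (4.19 to 6.43) and 13 (6.51 to 30.6). The remaining cells of WTctrl lay mostly in sub-clusters led by H2-M5 and H2-M2 (44.6% of the class) and by Cd207 and Grasp (25%), and those of WTUV and RPUV mostly in one led by Mfge8 and H2-M2 (45.9% and 38.9%). No Langerhans cell sub-cluster could be compared with WTctrl for Hpgd, and there a change within a cell type and a change of cell types cannot be told apart. Between RPUV and WTUV the Hpgd folds in the 2 sub-clusters compared were 0.82 and 1.35, and neither was called. Macrophage markers reached 7.95%, 14.5% and 18.8% of their macrophage level in the class (9, 11 and 10 of 11 markers, with Fcgr1 and Ms4a7 at 0 in WTctrl and Ly6c2 at 0 in RPUV), which would carry 30.2, 26 and 14.9 CPM of Hpgd. Hpgd was also lower in RPUV than in WTctrl in fibroblasts, at 204 (182 to 227) and 58.4 (46.1 to 73), in pericytes or smooth muscle cells, at 91.6 (51.3 to 151) and 19.8 (9.86 to 35.3), and in hair follicle keratinocytes, at 54.2 (41.9 to 69.1) and 19.6 (13.4 to 27.6). The factors were 3.49 (2.71 to 4.53), 4.64 (1.99 to 11.2) and 2.77 (1.79 to 4.37). In hair follicle keratinocytes WTUV was also lower, by 2.22-fold (1.48 to 3.38). This call is not stable, since the log2 fold of -1.15 shrinks to -0.37 under 1 of the alternatives tried.

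Apart from suprabasal keratinocytes, Hpgd was not called in the other classes compared. Conventional dendritic cells had 80.5 (71.8 to 90.1), 57.7 (53.1 to 62.6) and 75.2 (51.4 to 106), and basal keratinocytes 23.8, 17.2 and 27.3 with overlapping intervals. Between WTUV and WTctrl the Hpgd fold was 0.685 (0.473 to 1.01) in alpha beta T cells and 1.06 (0.573 to 2.19) in gamma delta T cells. In suprabasal keratinocytes the level was 3.23 (1.55 to 5.94), 7.01 (4.16 to 11.1) and 20.6 (14.9 to 27.9), called higher in RPUV than in WTUV and in WTctrl, but 19 of the 42 UMIs of RPUV were in 1 cell. Without that cell the level was 11.5, which is 1.64-fold (0.846 to 3.22) above WTUV and 3.56-fold (1.63 to 8.38) above WTctrl, so that only the second call stays.

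In macrophages and monocytes, Hpgd was also lower than in WTctrl within the sub-clusters that could be compared. Between WTUV and WTctrl, the fold was below 1 in all 10 sub-clusters that could be compared, by 1.2 to 3.2-fold, and 1 was called. Between RPUV and WTctrl both sub-clusters that could be compared were called lower, by 3.58 and 4.9-fold. Between RPUV and WTUV, 3 of 4 were below 1 and 0 were called. The makeup of the class differed greatly: in WTctrl the most frequent sub-clusters were led by Hal, Ccl8 and Chp2 (31.3%) and by Retnla and Lyve1 (29.1%), and in RPUV by Ccl12, Ccl7 and Npl (24.7%) and by Fcna, Lyve1 and Hal (19.1%). The RPUV sub-cluster led by Chil3, Trem2 and Pdpn (16.1% of the class) had 35.7 CPM of Hpgd, while the one of WTctrl led by Gbp2b and Igf1 had 489 (449 to 531). Several sub-clusters were nearly confined to 1 library, and there a change within a cell type and a change of cell types cannot be told apart.

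Ptgs2 showed a different pattern among the same cells. Its level was 413 and 598 in the WTUV sub-clusters led by Nrg1 and Thbs1 and by Gm9733 and Vcan, and 700 in the RPUV sub-cluster led by Chil3 and Spp1. Ptgs2 UMIs were in 24 macrophages and monocytes of WTctrl, 271 of WTUV and 717 of RPUV, and the 5% of cells richest in it held 86.1% of its UMIs in WTUV and 56.6% in RPUV. Where RPUV and WTUV shared sub-clusters, Ptgs2 was called higher in 4 of 4, by 5.01 to 22.5-fold, against 2.02-fold (1.91 to 2.14) over the class. That class value is not stable, since without integration its log2 fold is 0.09 in place of 1.02, and without the cell richest in Ptgs2 the fold is 1.99 (1.88 to 2.11).

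**Figure D4:**
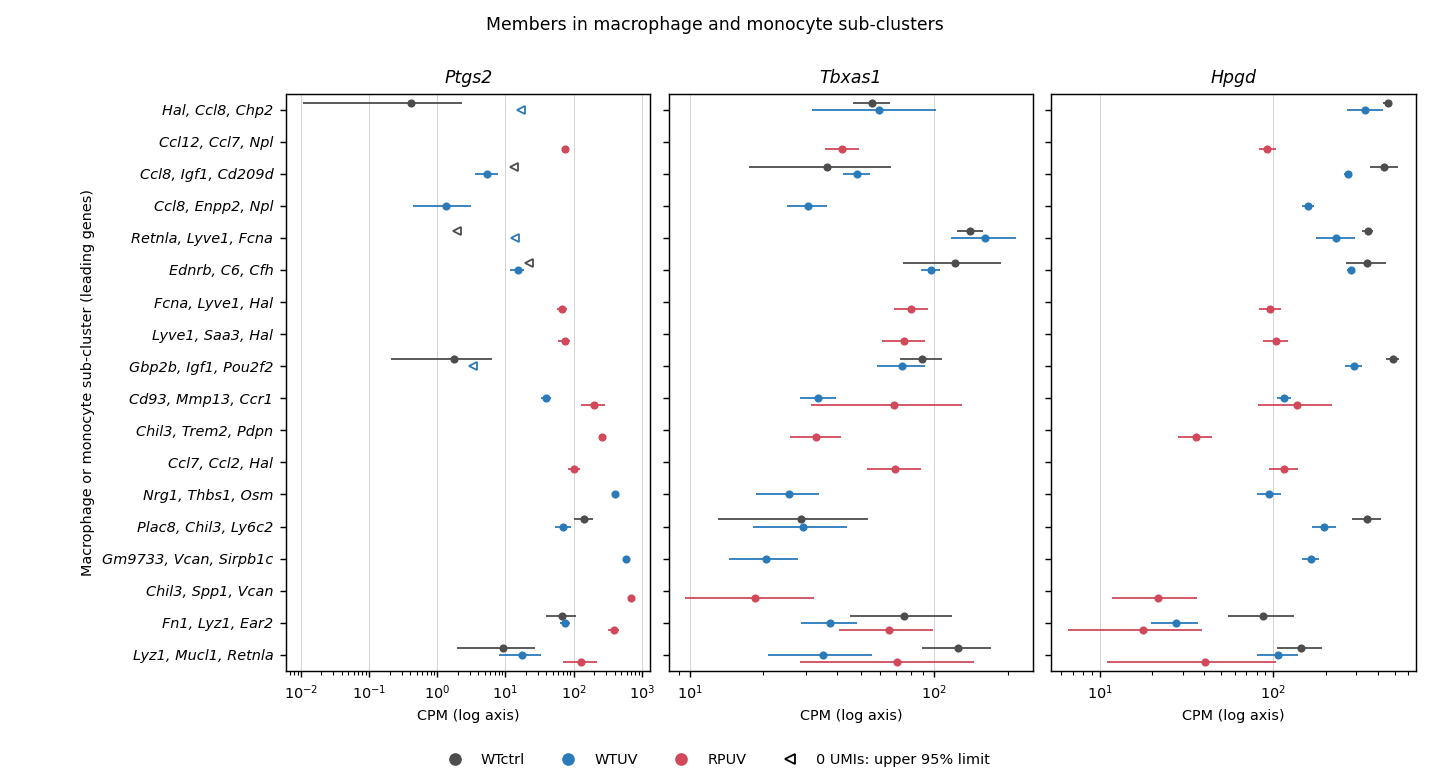
Levels of Ptgs2, Tbxas1 and Hpgd (panels) in CPM, on log axes, in sub-clusters of macrophages and monocytes (rows, named by their leading genes) for each library (colours), with exact 95% Poisson intervals. Sub-clusters with points of 1 colour are nearly confined to that library. Hpgd is between 87.3 and 489 in the WTctrl rows and between 17.8 and 137 in the RPUV rows.

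Cells in which both steps could be read were then counted, with each cell thinned to 1000 UMIs so that depth was even. A cell that holds a cyclooxygenase UMI and a synthase UMI could make the product by itself, although PGH2 also passes between cells. Langerhans cells stood out for PGD2: 33 of 92 in WTctrl (35.9%, 26.8 to 46.1), 27 of 111 in WTUV (24.3%, 17.3 to 33.1) and 9 of 53 in RPUV (17%, 9.2 to 29.2) had a cyclooxygenase and an Hpgds UMI. Unthinned, the shares were 80.4%, 78.4% and 44.4%. The thinned shares of Langerhans cells with a cyclooxygenase and Hpgd were 28.3%, 6.31% and 1.89%, and the 95% intervals of WTctrl (20.1 to 38.2) and RPUV (0.334 to 9.94) do not overlap. Unthinned they were 70.7%, 50.5% and 16.7%. Without the Mki67 sub-cluster, the thinned shares with a cyclooxygenase and Hpgds were 43.4% (32.9 to 54.6) of 76 cells, 30.9% (21.9 to 41.6) of 81 and 27.3% (15.1 to 44.2) of 33, with all intervals overlapping, and those with a cyclooxygenase and Hpgd were 32.9% (23.4 to 44.1), 7.41% (3.44 to 15.2) and 3.03% (0.537 to 15.3).

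For PGE2 made through Ptges, the clearest class was the suprabasal keratinocyte of RPUV. Cells with a cyclooxygenase and Ptges2 or Ptges3, the more widely spread PGE2 synthases, were not counted. UMIs of a cyclooxygenase and Ptges (cyclooxygenase and Ptges in the same cell) were found in 2 of 386 cells of WTctrl (0.518%, 0.142 to 1.87), 0 of 201 of WTUV at the thinned depth (0 to 1.88%), and 11 of 235 of RPUV (4.68%, 2.63 to 8.19). Unthinned, the shares were 8.87%, 17.7% and 33.6%. The share of these cells with either cyclooxygenase was 18.7% (15.1 to 22.8), 24.4% (19 to 30.8) and 45.1% (38.9 to 51.5). Among alpha beta T cells, which should lack these synthases, 0 of 279 in WTctrl and 0 of 334 in WTUV had a Ptges UMI without thinning, which allows a share of up to 1.08% and 0.898%, at median depths of 2414 and 6276 UMIs a cell against 7442, 4289 and 7407 in suprabasal keratinocytes.

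For thromboxane and prostacyclin the counts were small. A cyclooxygenase and a Tbxas1 UMI were found in 2 of 1865, 7 of 2381 and 12 of 2272 macrophages and monocytes (0.107%, 0.294% and 0.528%), and the intervals of WTctrl (0.0294 to 0.39) and RPUV (0.302 to 0.921) overlap. Unthinned, the shares were 3.21%, 6.88% and 7.57%. A cyclooxygenase and Ptgis were found in 2 of 336 fibroblasts of WTctrl and 2 of 334 of RPUV. Neutrophils had a cyclooxygenase UMI in 73.2% (60.4 to 83) and 79.2% (75.4 to 82.5) of cells in WTUV and RPUV, and of the 499 neutrophils of RPUV only 2 also had Hpgds and 1 Tbxas1.

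**Figure D5:**
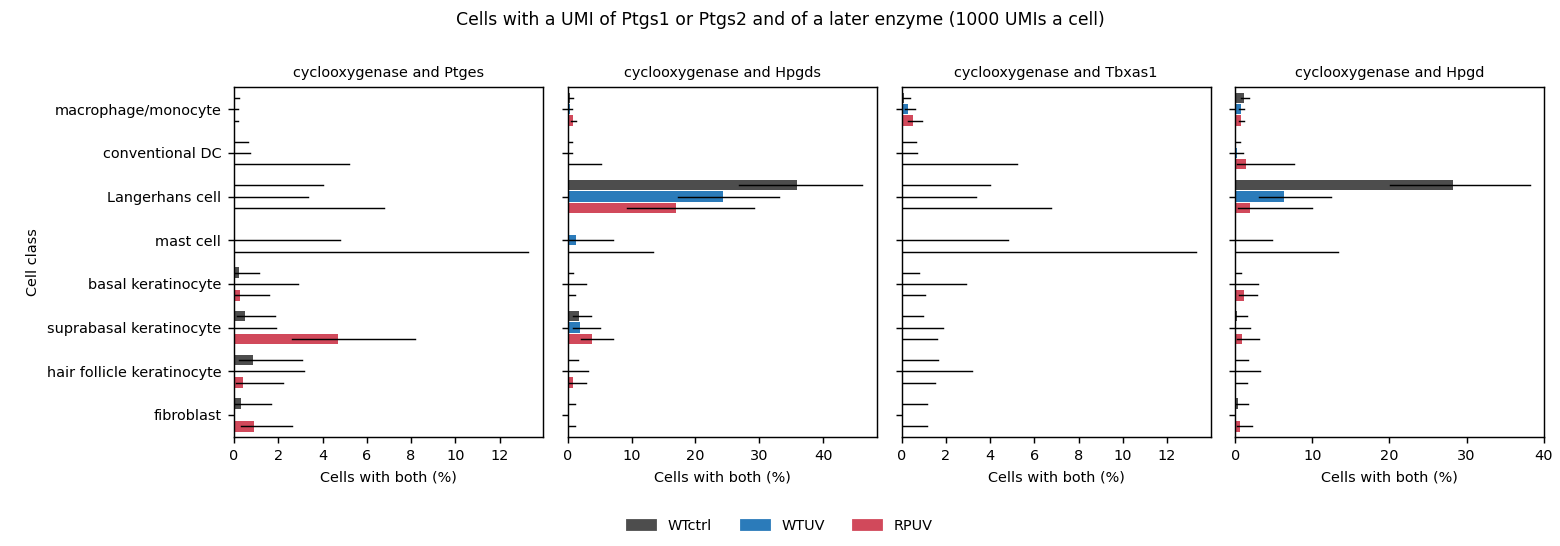
Share of cells (%) with at least 1 UMI of Ptgs1 or Ptgs2 and at least 1 UMI of the later enzyme named above each panel, after thinning to 1000 UMIs a cell, by class and library (colours). Lines are Wilson 95% intervals, and axes differ between panels. Langerhans cells lead for Hpgds (35.9%, 24.3% and 17%) and for Hpgd, and suprabasal keratinocytes of RPUV for Ptges (4.68%).

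The members' nearest genes were listed by the correlation of log levels over 45 sums of a class in a library, among 8963 genes, as a description, since sums of a library share its depth and RNA. Ptgs1 was nearest to Tspan8 (r = 0.83), Hpgds to Wdr45b (0.72) and Plau (0.69), Ptges to Ghr (0.83) and Robo1 (0.82), and Ptgis to Svep1 (0.92) and Pdgfrl (0.91). Tbxas1 was nearest to Lyz2 and Clec4a3 (0.83 each), Ptgs2 to Clec4d and S100a9 (0.78 each), and Hpgd to Plxna1, Lacc1 and Cyp27a1 (0.73 each). Ptgds was nearest to Pmel (0.68), Ptges2 to Mrpl42 (0.84) and Ptges3 to Mrpl49 (0.75).

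Genes on either side of the members were read from lists, whose counts stand beside the background of all gene and class pairs: 3.63% higher and 3.56% lower in WTUV against WTctrl, 4.44% and 4.62% in RPUV against WTUV, and 6.28% and 7.06% in RPUV against WTctrl. Of 15 genes that release arachidonate, 2 pairs of gene and class were higher and 2 lower of 41 in WTUV against WTctrl, 5 and 7 of 43 in RPUV against WTUV, and 8 and 5 of 50 in RPUV against WTctrl. The secreted phospholipase Pla2g2d was 78.7, 27.1 and 3.29 CPM in macrophages and monocytes, lower by 2.9-fold (2.61 to 3.23) in WTUV and 23.9-fold (17.4 to 33.7) in RPUV than in WTctrl. Mgll, a monoacylglycerol lipase, was 2.99, 2.09 and 9.64 there, 4.61-fold (3.38 to 6.35) higher in RPUV than in WTUV. In hair follicle keratinocytes the phospholipase Pla2g2f was 44.2, 80 and 200, 2.5-fold (2.04 to 3.09) higher in RPUV than in WTUV. In suprabasal keratinocytes Pla2g4e, a cytosolic phospholipase, was 0, 3.51 and 20.6.

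The transport list has 2 genes, of which Slco2a1 encodes the prostaglandin uptake carrier. Of its 10, 11 and 15 pairs, 1, 1 and 3 were higher and 1, 0 and 4 lower in WTUV against WTctrl, RPUV against WTUV and RPUV against WTctrl. Slco2a1 was 73.9 in endothelial cells of WTctrl and 293 in those of RPUV, 3.97-fold higher (2.44 to 6.89), and 151 and 70.1 in basal keratinocytes, 2.16-fold lower (1.82 to 2.57). Of 7 genes for PGF2a synthesis and later breakdown, 1, 5 and 13 pairs were higher and 1, 0 and 2 lower, of 49, 48 and 60. Akr1b8, an aldo-keto reductase, was higher in RPUV than in WTUV in macrophages and monocytes (16.7, 21.4 and 55.6 in WTctrl, WTUV and RPUV) and in basal (8.15, 17.7 and 44.7) and suprabasal keratinocytes (0.968, 3.51 and 22.1). Ptgr1, a prostaglandin reductase, was 32.9 in macrophages and monocytes of WTctrl and 67.4 in those of RPUV. The median log2 folds of these lists in RPUV against WTctrl were 0.04, -0.25 and 0.11, beside -0.01 over all genes.

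The study's upper limit on genes per cell (4000, and 6000 in WTUV) took out cells that bear on these enzymes. The 211, 206 and 213 cells removed for too many genes held 64.7%, 60% and 33.2% of all Ptgs1 UMIs of the barcodes deposited, at 301, 223 and 92.7 CPM, and 39.8%, 63.9% and 35.4% of all Ptges UMIs. They also held 70.6%, 73.4% and 40.3% of the UMIs of Krt10, a suprabasal keratin. The Ptgs1 and Ptges levels of the keratinocytes described above are therefore those of the cells that passed the filter.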

How the data were processed

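The authors made the deposited counts with Cell Ranger 6.1.1 from 10x 3′ libraries, 1 for each of WTctrl, WTUV and RPUV, on mm10, as raw UMI counts per gene and cell barcode. Whether reads of the rat transgene were counted as mouse Ptgs2 was not given in the sources used here. Groups came from the sample labels. Cells were kept as in the study (under 10% mitochondrial UMIs, over 200 and under 4000 genes, or 6000 in WTUV), normalized and integrated in Seurat 5.3.0 with sctransform 0.4.2 (R 4.3.3; 3000 features, 30 dimensions, resolution 0.8), and sub-clustered with scanpy 1.11.5 and leidenalg 0.10.2 (Python 3.11.15; resolution 0.5). The 10 members and the other pathway genes were removed before clustering. Classes were named from marker panels, which leaves rebuilt names that may differ from the study's. Some limits of the naming rule were set after the clusters were seen, and a stricter rule was run beside it.

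Raw UMIs were summed per class and library. Intervals (95%, scipy 1.17.1) are exact Poisson for levels, exact conditional binomial for folds and Wilson for shares of cells. A fold was called at 2 or more, or 1/2 or less, with an interval leaving out 1, from at least 20 cells in both libraries and 20 UMIs over both. With 1 library per group there were no replicates, so no p-value was computed, and the intervals cover counting error only. The fold script was tested on simulated data. Scrublet marked 1.39%, 0.0191% and 0.0165% of cells, so it did not work in the UVB libraries, and no doublets were removed. At most 11 barcodes were shared by any pair of libraries. Shares of cells are for 1000 UMIs drawn at random from each cell, and cells with fewer UMIs were not counted. The RNA that another cell type would carry into a class was taken as the gene's level in that type times the class's share of its marker level.

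The members, marker panels and pathway lists were chosen with earlier results of these data known. The text names all 10 members, their leading classes, the genes most like each by Pearson correlation of log2(CPM + 1) and genes of the pathway lists, of which those with called folds were picked after their values were seen. Alternatives were another gene limit, classes from marker UMIs of each cell, no integration, naming each unnamed cluster, removing the top 5% of doublet scores, means over cells, centring, and other UMI and fold limits. Added after the data were seen were the stricter names, Langerhans cells without the Mki67 sub-cluster and leaving out the cell richest in a gene. Promoter sequences and positions are from RefSeq on GRCm38.p6.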

Additional observations from a re-analysis of the deposited data

Results flagged for a closer look

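Some members were called in opposite directions in different classes. Hpgd in RPUV against WTUV had a fold of 2.94 in suprabasal keratinocytes and 0.441 in macrophages and monocytes, and against WTctrl 6.39 in suprabasal keratinocytes and 0.108 in Langerhans cells. Hpgds in RPUV against WTUV had a fold of 3.81 in hair follicle keratinocytes and 0.368 in Langerhans cells. Ptgs1 in RPUV against WTctrl had a fold of 2.9 in endothelial cells and 0.352 in macrophages and monocytes. Without the Mki67 sub-cluster the Langerhans cell folds were 0.527 (0.427 to 0.644) for Hpgds, which is no longer called, and 0.0767 (0.0327 to 0.154) for Hpgd. With 1 library per group, these differences between classes were not tested.

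In cells that the comparisons did not use, some members were also above their level in the same kind of cells of WTctrl. In unnamed cells Ptgs2 was 272 CPM in WTUV and 603 in RPUV, Ptges was 17 in RPUV and Ptgds 5.36 in WTUV. In cells removed for too many genes Ptgs2 was 46.1 in WTUV and 577 in RPUV, against 3.26 in WTctrl. There Ptgds was 1.37 and Tbxas1 7.03 in WTUV, against 0 and 1.16 in WTctrl.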

How the results depend on the processing

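No paired analysis was possible because each group is 1 library. Of 12 settings, 5 kept all 6 counts of called pairs within 1.5 times: Langerhans cells without the Mki67 sub-cluster, at least 50 UMIs, no minimum of UMIs, stricter names and no top 5% of doublet scores. In WTUV against WTctrl, the 5 higher pairs became 8 with classes from the marker UMIs of each cell, without integration, with unnamed clusters given their best panel, with means over cells and when centred on the median fold, and the 4 lower pairs became 8 with marker UMIs and without integration and 9 at a fold of 1.5. Centring thus gave 8 higher and 4 lower. In RPUV against WTUV, the 3 lower pairs became 5 with 4000 genes in every library, with best panels and at a fold of 1.5, and 6 with marker UMIs. The log2 fold of Hpgds in hair follicle keratinocytes, RPUV against WTUV, turned from 1.93 to -0.08 with marker UMIs and to -0.65 with best panels. The cause was not tested. The median log2 fold of all genes in a class lay between -0.20 (suprabasal keratinocytes, WTUV against WTctrl) and 0.19 (pericytes or smooth muscle cells, RPUV against WTUV, and mast cells, RPUV against WTctrl). Leaving out the cell richest in the gene, an alternative chosen after seeing the data, ended 5 of 50 calls: Ptgs2 of RPUV against WTUV in macrophages and monocytes (1.99), gamma delta T cells (1.77) and mast cells (2.29), Hpgd in suprabasal keratinocytes against WTUV (1.64) and Hpgds in mast cells against WTctrl (a factor of 1.99). Depth limits the classes of few cells most, since neutrophils of WTctrl and the fibroblasts and endothelial cells of WTUV gave no comparison.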

Other observations

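Some genes beside the members, named after their values were seen, had large called differences in single classes. In sebaceous gland cells Akr1c18, an aldo-keto reductase, was 761 CPM in WTctrl and 49.5 in RPUV, lower by 15.4-fold (11.8 to 20.3). The makeup of that class differed. The sub-cluster led by Psph and Ldhb held 68.8% of its 32 cells in WTctrl and 30.3% of its 165 in RPUV. Whether the Akr1c18 difference lies within sub-clusters was not tested. In fibroblasts the phospholipase Pla2g5 was 29.3 in WTctrl and 0.759 in RPUV, from 47 UMIs and 1 UMI, a factor of 38.6 (6.6 to 1557). In basal keratinocytes Prxl2b, a PGF synthase gene, was 72.1 in WTctrl, 52.6 in WTUV and 28.7 in RPUV, and only the difference of RPUV from WTctrl was called (2.51-fold lower, 1.93 to 3.29). In hair follicle keratinocytes Mgll was 20 in WTctrl, 7.94 in WTUV and 39.8 in RPUV, called lower in WTUV than in WTctrl (2.52-fold, 1.23 to 5.4) and 5.01-fold higher (2.74 to 9.91) in RPUV than in WTUV.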
